A study of Mus musculus with 12 samples.

Results

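The 38 genes described here mark macrophages, granule-bearing myeloid cells and the progenitors that give rise to blood in the yolk sac. They are listed as markers of these cells. The rule that chose them uses no measured change, but they were chosen with earlier results of these data known. Each was read in the deposited expression table at its brightest probe set, taking the mean of all 12 arrays. Of the 38 genes, 37 were measured among 18193 genes tested, and Cebpe, a transcription factor of granulocyte maturation, was not analysed here.

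RNA was profiled on single-colour Affymetrix whole-genome mouse arrays in yolk sacs that lacked Hypb (Hypb-/-, called knockout) and in Hypb+/+ yolk sacs (called wild type), at E10.5 and E9.0 (days of embryonic development). Hypb is now named Setd2 and encodes the methyltransferase that trimethylates lysine 36 of histone H3. Each of the 4 groups had 3 arrays, and each array carried RNA from a pool of 4 yolk sacs, so differences between single embryos were averaged within a pool. Both genotypes were of a 129Sv/C57BL/6 strain mix, and the labels do not say which part of the gene was deleted or whether pools were matched by litter. The submitters picked E9.0 as a stage without severe visible defects and E10.5 as a stage just before the mutants die.

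The yolk sac makes the first macrophages of the mouse embryo. Some arise from early progenitors that do not need the transcription factor Myb, and erythro-myeloid progenitors marked by Kit and dependent on Runx1 add further myeloid cells. Maturing macrophages switch on the transcription factor PU.1 (encoded by Spi1), the growth factor receptor Csf1r, complement C1q and Fc receptors. Myeloid cells of the granulocyte branch store peroxidase and serine proteases in granules.

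Setd2 was lower on every knockout array. At E10.5 its log2 values were 7.77, 7.81 and 8.07 in the knockout, against 8.77, 8.70 and 8.66 in the wild type (log2 change -0.83, SE 0.13, adjusted p = 0.00294). At E9.0 they were 7.54, 7.99 and 7.53 in the knockout, against 9.08, 9.03 and 8.83 in the wild type (-1.29, SE 0.13, adjusted p = 0.00207). Replicate 3 stood apart in control probe sets. The BioC control minus the BioB control was -0.10 in knockout replicate 3 and -0.023 in wild type replicate 3 at E9.0, and 1.42 to 1.53 on the other arrays. The 3' minus 5' difference of the dap control was 1.87 and 1.85 in the knockout and wild type replicate 3 at E10.5, and 1.23 to 1.44 on the other 4 arrays of that stage. Both genotypes are in replicate 3 at each stage. Changes within replicates 1 and 2 are therefore also given for named genotype calls that were lost there, and for some that held.

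Promoter sequence was matched for 29 of the 37 measured genes, as 36 start-site windows from RefSeq on build GRCm38.p6. The unmatched genes were Spi1, Csf1r, Adgre1, C1qa, Tyrobp, Cd14, Cd52 and Itgb2. The 250 bases upstream of each start were searched on both strands for GAGGAA, the core that PU.1 binds. It was found in 20 of the 36 windows (55.6%), belonging to 18 genes, and in 23.3% of 32851 windows of all genes. TGTGGT, the core bound by RUNX factors, was in 6 of the 36 windows (16.7%) and in 14.0% of all windows, and TTGCNNAA, a form of the C/EBP palindrome, was in 3 (8.33%) and in 9.56%. These shares describe letters in a window and do not show binding. Windows of 4 genes are printed, chosen for the expression changes named next. Whether the letters in a window bear on those changes was not tested. Fcer1g and Fcgr3 encode partner subunits of 1 receptor and changed in opposite directions in the knockout, Mpo had the largest rise of the 37 genes in the knockout at E10.5, and C1qb had the second largest rise with stage in both genotypes. The windows are Fcer1g at chr1:171234350-171234599 (minus strand), Fcgr3 at chr1:171059404-171059653 (minus strand), Mpo at chr11:87793534-87793783 (plus strand) and C1qb at chr4:136886201-136886450 (minus strand). Capitals mark GAGGAA or its reverse complement TTCCTC. The Fcer1g window held no match, the Fcgr3 window held 1 at its 3' end, the Mpo window held 2 and the C1qb window held 1.
Fcer1g: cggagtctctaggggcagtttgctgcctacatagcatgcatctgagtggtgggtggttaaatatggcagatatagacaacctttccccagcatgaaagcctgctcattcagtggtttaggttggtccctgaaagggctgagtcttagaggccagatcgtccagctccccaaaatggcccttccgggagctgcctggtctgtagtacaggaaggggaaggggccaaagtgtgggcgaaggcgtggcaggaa
Fcgr3: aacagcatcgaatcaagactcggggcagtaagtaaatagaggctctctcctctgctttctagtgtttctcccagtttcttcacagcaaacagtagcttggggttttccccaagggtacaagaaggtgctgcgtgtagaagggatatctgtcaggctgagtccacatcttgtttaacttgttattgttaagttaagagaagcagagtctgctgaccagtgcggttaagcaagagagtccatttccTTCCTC
Mpo: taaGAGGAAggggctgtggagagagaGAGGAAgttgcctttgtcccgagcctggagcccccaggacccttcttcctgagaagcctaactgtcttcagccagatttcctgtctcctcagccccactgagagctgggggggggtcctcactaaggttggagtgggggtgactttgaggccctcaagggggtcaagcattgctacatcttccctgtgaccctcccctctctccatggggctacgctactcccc
C1qb: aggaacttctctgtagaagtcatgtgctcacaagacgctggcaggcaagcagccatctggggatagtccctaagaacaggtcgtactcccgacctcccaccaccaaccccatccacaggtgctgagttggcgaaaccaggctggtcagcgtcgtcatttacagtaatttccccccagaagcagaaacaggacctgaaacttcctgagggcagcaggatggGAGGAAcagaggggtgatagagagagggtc

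At E10.5 the knockout changed 10 of the 37 genes, of which 7 rose and 3 fell. Mpo, Fcer1g, Cybb, Cd52, Csf1r, Cx3cr1 and Tyrobp rose, and Fcgr3, Cyba and Lcp1 fell. The same test called 7.28% of all genes (4.12% higher and 3.16% lower). The median log2 change of the 37 genes was 0.01, against -0.013 over all genes, and 20 of them had a positive change and 17 a negative one. An unadjusted p under 0.05 was found in 18 of the 37 and in 20.2% of all genes. In 16 of the 37 genes every knockout array lay on 1 side of every wild type array, as did 22.8% of all genes. Changes ranged from -1.82 to 1.56 on the log2 scale and ran in both directions within every role group except C1q, whose 3 genes all had negative values. In pooled tissue, fewer cells of a type and less RNA per cell cannot be told apart.

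**Figure D1:**
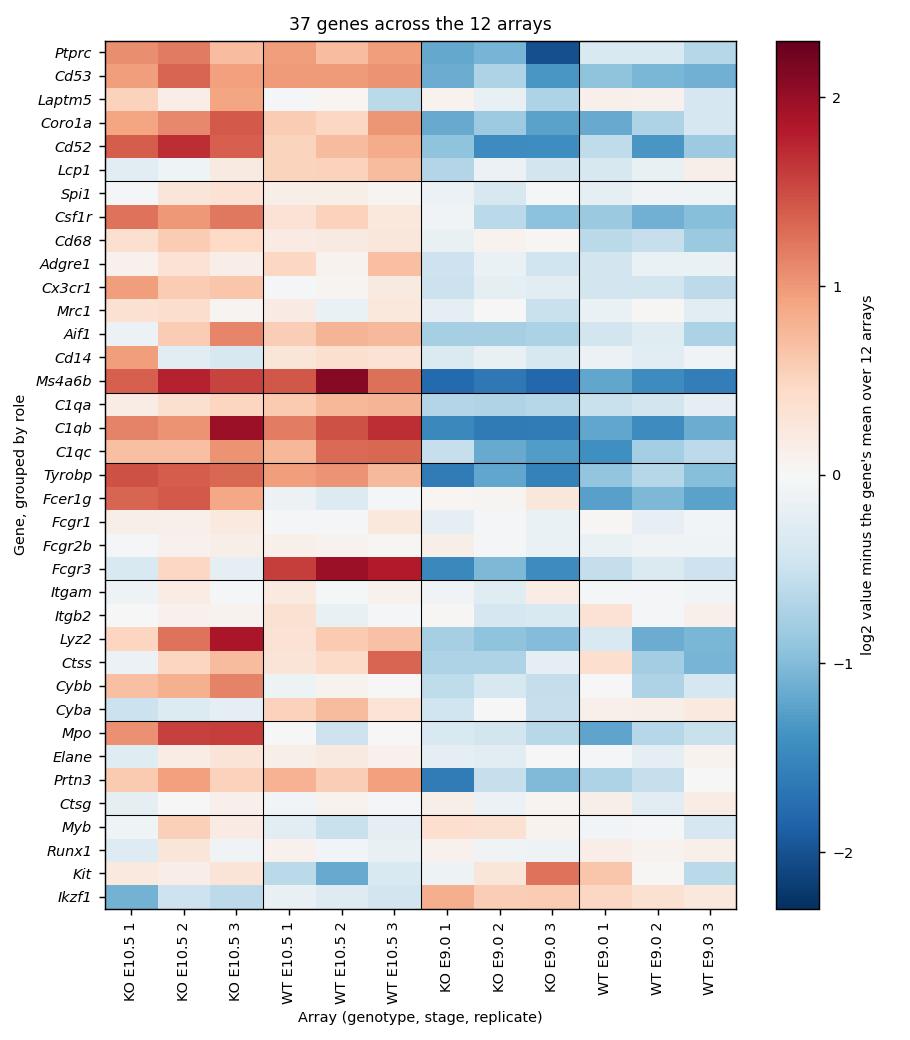
Each row is 1 of the 37 measured genes and each column 1 array, in the order knockout E10.5, wild type E10.5, knockout E9.0, wild type E9.0, with genes grouped by role. Colour gives the log2 value minus that gene's mean over the 12 arrays. The E10.5 columns are higher than the E9.0 columns for most genes in both genotypes, and Fcer1g, Mpo and Fcgr3 separate the genotypes at E10.5.

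Among the Fc receptors and their adaptors, Fcer1g is the shared signalling gamma chain, and Fcgr3 is the ligand-binding chain of a low-affinity IgG receptor that needs Fcer1g for surface display. Fcer1g had log2 values of 8.70, 8.76 and 8.24 on the knockout arrays at E10.5, against 7.21, 7.03 and 7.33 on the wild type arrays. All 3 knockout arrays were above all 3 wild type arrays, and Fcer1g rose 2.60-fold (log2 change 1.38, SE 0.14, adjusted p = 0.000160). Fcgr3 had 8.40, 9.22 and 8.54 in the knockout, against 10.34, 10.71 and 10.56 in the wild type. Here every knockout array was below every wild type array, and Fcgr3 fell 3.52-fold (log2 change -1.82, SE 0.19, adjusted p = 0.000216). Both calls held without any 1 array and within replicates 1 and 2, where the changes were 1.61 for Fcer1g and -1.72 for Fcgr3. The genes lie on chromosome 1 with 7 protein-coding genes between them.

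Tyrobp, the adaptor DAP12 that carries signals of myeloid surface receptors, had 7.38, 7.32 and 7.24 in the knockout at E10.5, against 6.88, 6.96 and 6.66 in the wild type. The arrays did not overlap and the log2 change was 0.48 (SE 0.13, adjusted p = 0.0417). Leaving out any array of that stage except knockout replicate 3 took its adjusted p above 0.05, up to 0.147, with changes of 0.39 to 0.54. It was 0.115 within replicates 1 and 2 (change 0.43), 0.0554 with median centring and 0.0588 with quantile normalization, and the call was lost in 7 of the 10 settings that left out no single array. Of the other receptors, Fcgr1, the high-affinity IgG receptor, had a change of 0.10 (adjusted p = 0.688) and Fcgr2b, the inhibitory receptor, -0.01 (adjusted p = 0.983). A second, dimmer Fcgr1 probe set had a change of 0.63 (SE 0.12, adjusted p = 0.00964 over all probe sets with 1 gene symbol).

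**Figure D2:**
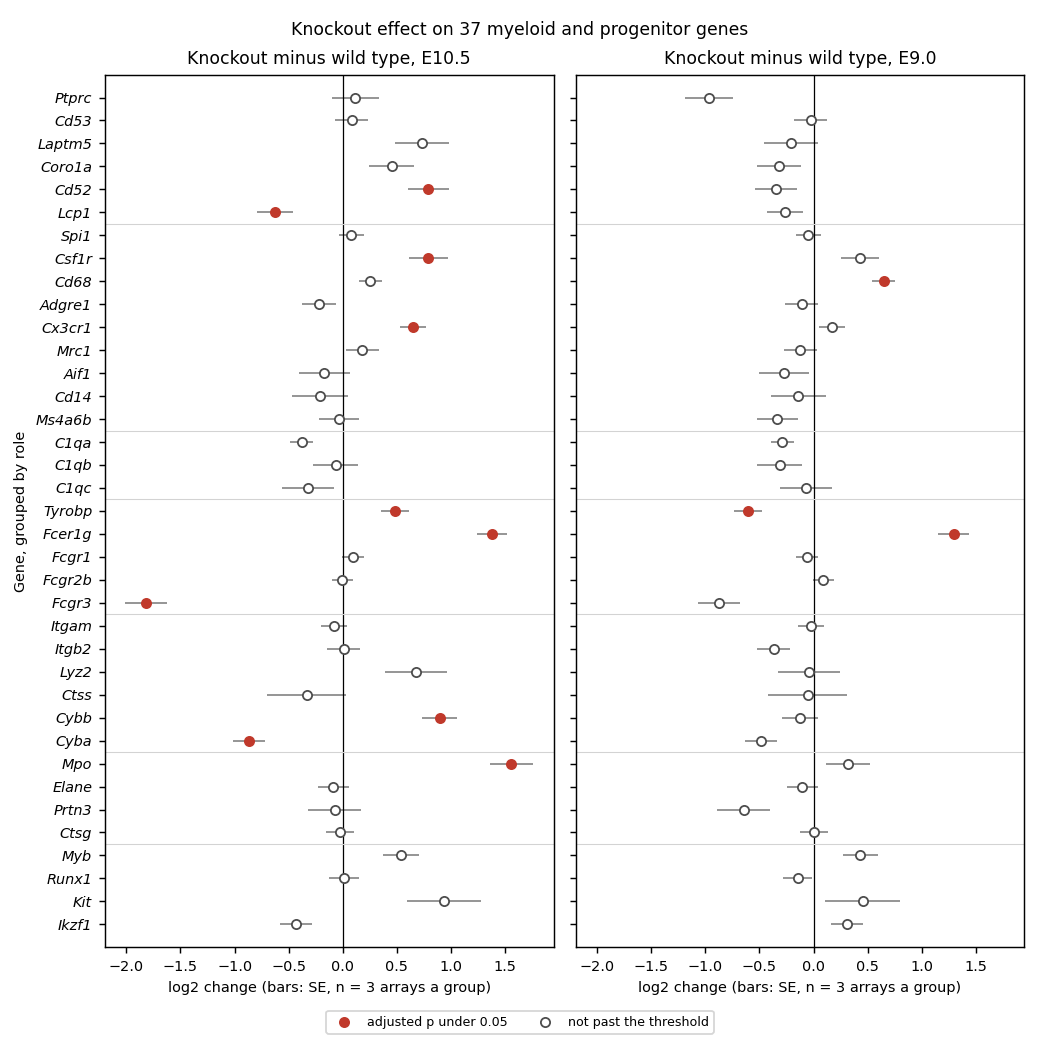
Points give the log2 change, knockout minus wild type, of each of the 37 genes with its SE, at E10.5 in the left panel and at E9.0 in the right panel, grouped by role. Filled points passed the adjusted p threshold of 0.05, which 10 genes did at E10.5 and 3 at E9.0. Fcer1g lies at 1.38 and 1.29 in the 2 panels, and Mpo (1.56) and Fcgr3 (-1.82) are the extremes at E10.5.

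The membrane pair of the phagocyte NADPH oxidase, Cybb (gp91phox) and Cyba (p22phox), also moved apart at E10.5. Cybb had log2 values of 4.46, 4.59 and 4.92 in the knockout, against 3.66, 3.86 and 3.77 in the wild type. It rose with no overlap of arrays (log2 change 0.89, SE 0.16, adjusted p = 0.00631). Cyba, which is expressed in many cell types besides phagocytes, had 10.66, 10.84 and 10.95 in the knockout, against 11.69, 11.89 and 11.47 in the wild type, and fell 1.82-fold (-0.87, SE 0.15, adjusted p = 0.00373). Both calls held without any 1 array. Within replicates 1 and 2 the change was 0.77 for Cybb (adjusted p = 0.0600) and -1.04 for Cyba (adjusted p = 0.00964). RMA gives no detection call, so no fold is given over wild type values this low. The other Cybb probe sets had changes of 0.22 and 0.24, and neither passed the threshold.

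The remaining members of the integrin, lysosome and oxidase group did not pass the test at E10.5. The lysozyme gene Lyz2 had a change of 0.67 (SE 0.29, adjusted p = 0.206), with values of 6.65, 7.42 and 8.05 in the knockout, against 6.50, 6.77 and 6.83 in the wild type. These arrays overlapped. The lysosomal protease Ctss had a change of -0.33, the integrin chain Itgam -0.08 and its partner Itgb2 0.01.

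Of the 4 measured granule genes, 1 rose at E10.5. Mpo, myeloperoxidase of early myeloid cells, had 7.08, 7.60 and 7.62 in the knockout, against 6.04, 5.55 and 6.04 in the wild type. Every knockout array lay above every wild type array, and Mpo rose 2.94-fold (log2 change 1.56, SE 0.20, adjusted p = 0.000677). The call held without any 1 array, and the change within replicates 1 and 2 was 1.55. The serine protease genes of the same granules did not pass the test, with changes of -0.08 for Prtn3, -0.09 for Elane and -0.03 for Ctsg, each with an SE of 0.13 to 0.25. Elane (mean log2 value 4.55) and Ctsg (4.12) were dimmer than Prtn3 (6.23) and were not shown to be above background. A list of 16 further granule genes had 2 that rose and 1 that fell. Over all genes the test called 4.12% higher and 3.16% lower. An unadjusted p under 0.05 was found in 5 of the 16, against 20.2% of all genes. Anxa1 rose by 1.29, Ltf by 1.29 and Serpinb1a fell by 1.13. Ltf lost its call without wild type replicate 1 or 2, and within replicates 1 and 2 neither Anxa1 (0.94, adjusted p = 0.105) nor Ltf (1.41, adjusted p = 0.0621) passed.

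Of the 9 macrophage identity genes, 2 rose at E10.5 and 7 did not pass the test. Csf1r, the receptor for the macrophage growth factors CSF1 and IL-34, had 9.60, 9.34 and 9.56 in the knockout, against 8.68, 8.87 and 8.58 in the wild type. The arrays did not overlap, and Csf1r rose 1.73-fold (log2 change 0.79, SE 0.18, adjusted p = 0.0181). Its adjusted p was 0.0713 with knockout replicate 1 left out (change 0.74), 0.0630 with wild type replicate 1 left out (0.78) and 0.0669 with wild type replicate 3 left out (0.73). It was 0.0567 within replicates 1 and 2 (0.70). The other 2 Csf1r probe sets had changes of 0.67 (adjusted p = 0.0410 over all probe sets) and 0.36 (adjusted p = 0.207).

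Cx3cr1, the fractalkine receptor that marks yolk sac macrophages and their progenitors, had 5.11, 4.74 and 4.78 in the knockout, against 4.12, 4.22 and 4.35 in the wild type. It rose with no overlap of arrays (log2 change 0.65, SE 0.12, adjusted p = 0.00695), and the call held without any 1 array. Its wild type values were not shown to be above background, so no fold is given. Its second probe set had a change of 0.10, and the mean of both missed the threshold (0.37, adjusted p = 0.110). Cx3cr1 lies on chromosome 9, as Setd2 does, with 79 protein-coding genes between them. The other identity genes had changes between -0.22 for Adgre1 (a pan-macrophage surface antigen) and 0.25 for Cd68 (a lysosomal glycoprotein), and Spi1, which encodes PU.1, had 0.08 (SE 0.12).

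Of the 6 genes expressed across leukocytes, 1 rose and 1 fell. Cd52, a small surface glycoprotein, had 7.36, 7.67 and 7.35 in the knockout, against 6.48, 6.71 and 6.82 in the wild type, a 1.73-fold rise (log2 change 0.79, SE 0.19, adjusted p = 0.0265). The arrays did not overlap. The Cd52 call was lost without 4 of the 6 arrays of that stage, knockout replicates 1 and 2 and wild type replicates 1 and 2, with changes of 0.69 to 0.84 and an adjusted p of up to 0.106. Within replicates 1 and 2 its change was 0.92 (adjusted p = 0.0654).

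Lcp1, the actin-bundling protein L-plastin, had 10.71, 10.85 and 11.16 in the knockout, against 11.45, 11.48 and 11.67 in the wild type, a 1.54-fold fall (log2 change -0.63, SE 0.17, adjusted p = 0.0394). The arrays did not overlap, and the call was lost without any array of that stage except knockout replicate 3, with changes of -0.67 to -0.53, and with the most variable probe set (-0.51, adjusted p = 0.263). The tyrosine phosphatase CD45 (Ptprc) had a change of 0.12, the tetraspanin Cd53 0.08, the actin regulator Coro1a 0.45 (adjusted p = 0.241) and the lysosomal protein Laptm5 0.73 (SE 0.25, adjusted p = 0.103). The 4 other Laptm5 probe sets had changes of 0.00 to 0.17.

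The 3 chains of C1q, which starts the classical complement pathway and is made by macrophages, did not pass the test at E10.5. C1qa had the largest change of the 3, with 5.24, 5.44 and 5.56 in the knockout, against 5.68, 5.84 and 5.86 in the wild type. All knockout arrays were lower, and the change was -0.38 (SE 0.11, adjusted p = 0.0518). With replicate 3 as a batch block C1qa was called (adjusted p = 0.0239). C1qb had a change of -0.07 and C1qc of -0.32, with overlapping arrays.

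Of the 4 progenitor genes, 0 passed limma's test at E10.5 after adjustment and 3 had an unadjusted p under 0.05, which 20.2% of all genes had. Kit, the stem cell factor receptor, had 7.07, 6.99 and 7.15 in the knockout, against 6.22, 5.68 and 6.50 in the wild type. The arrays did not overlap, and the change of 0.94 had an SE of 0.34 (adjusted p = 0.135). The second, dimmer Kit probe set had a change of 0.15 (adjusted p = 0.819 over all probe sets). Myb had a change of 0.54 (SE 0.16, adjusted p = 0.0677), the lymphoid and myeloid transcription factor Ikzf1 -0.43 (adjusted p = 0.112) and Runx1 0.01. A list of 20 further progenitor genes had 5 that rose and 0 that fell by limma's test, with 10 at an unadjusted p under 0.05 against that same 20.2%. By smallest p these were led by the transcription factors Hhex (0.68), Fli1 (1.04) and Hlf (0.55), of which Hhex and Fli1 are also expressed in endothelium. The count ranged from 1 to 5 without 1 array and was 3 within replicates 1 and 2. Hhex and Fli1 both lost their calls without knockout replicate 1, wild type replicate 2 or wild type replicate 3, and Hlf without 4 of the 6 arrays. Within replicates 1 and 2 Hhex (0.54, adjusted p = 0.109) and Hlf (0.48, adjusted p = 0.101) missed the threshold.

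**Figure D3:**
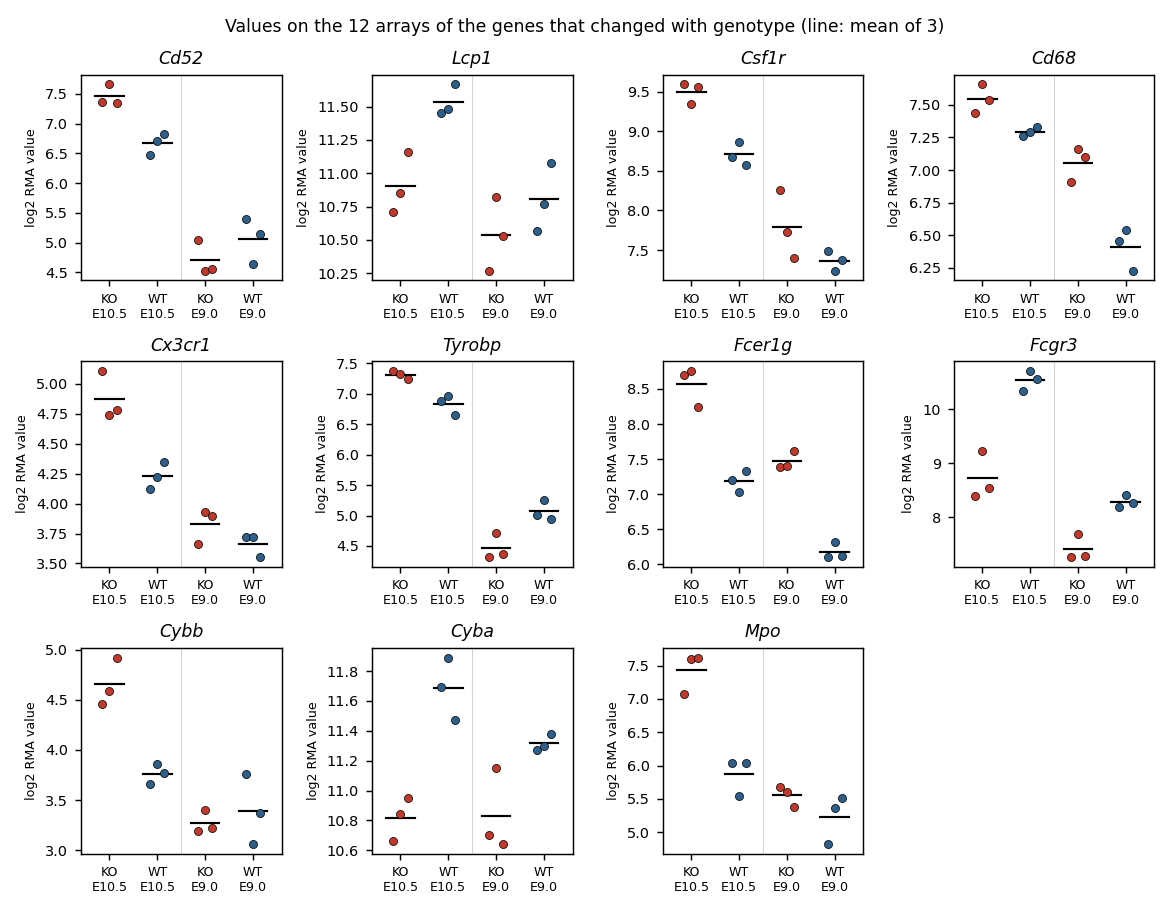
Points are the log2 values on single arrays, and short lines are group means of 3 arrays, in the order knockout E10.5, wild type E10.5, knockout E9.0 and wild type E9.0, for genes called in a knockout comparison. Each panel has its own log2 axis. Fcer1g was higher in the knockout at both stages, Fcgr3 lower, and Tyrobp was higher at E10.5 and lower at E9.0.

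A list of 42 further myeloid genes measured here had 5 that rose and 0 that fell in the knockout at E10.5 by limma's test, with 13 at an unadjusted p under 0.05 (20.2% of all genes) and a median change of 0.06. By smallest p they were led by F13a1, a coagulation factor subunit made by macrophages (1.32, SE 0.14, adjusted p = 0.000247), and the actin regulator Nckap1l (0.98, SE 0.11, adjusted p = 0.000303). Both calls held without any 1 array and within replicates 1 and 2, while the count ranged between 3 and 6 without 1 array.

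Markers of other cells moved at E10.5 as well, where 4.12% of all genes were called higher and 3.16% lower. Heart muscle had 3 of 6 genes higher in the knockout, Myl7 (3.21), Myl4 (2.11) and Tnnt2 (1.92). Its list mean was 6.01 to 7.72 on the knockout arrays and 4.93 to 5.15 on the wild type arrays. Mesenchyme had 3 of 8 higher (Vim, Acta2 and Tagln), with list means of 10.74 to 11.42 in the knockout and 10.57 to 10.74 in the wild type. Endothelium had 1 of 7 higher (Pecam1, 0.86), with all 7 changes positive. Visceral endoderm had 1 of 9 lower (Cubn, -0.36), the primitive red cell list 1 of 6 lower (Epb42, -1.25) and the megakaryocyte list 1 of 6 lower (Ppbp, -1.98). Changes were negative in 7 of 9, 6 of 6 and 4 of 6 genes of these lists in turn. The Pecam1, Cubn and Epb42 calls were each lost without most single arrays. Within replicates 1 and 2 Cubn (-0.395, adjusted p = 0.0541) and Epb42 (-1.215, adjusted p = 0.121) did not pass. An unadjusted p under 0.05 was found in 20.2% of all genes. It was found in 5 of 6 heart muscle, 4 of 8 mesenchyme and 4 of 7 endothelium genes. It was also found in 3 of 9 visceral endoderm, 3 of 6 primitive red cell and 1 of 6 megakaryocyte genes. By limma's test 0 of 11 lymphocyte genes, 0 of 6 mast cell genes, 0 of 3 adult globin genes and 0 of 3 decidua and trophoblast genes were called, and each of these 4 lists had 0 genes at an unadjusted p under 0.05. Whether the cell content of the pools contributed to the myeloid gene changes was not tested.

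At E9.0 the knockout changed 3 of the 37 genes, where the test called 1.18% of all genes (0.550% higher and 0.632% lower). Fcer1g and Cd68 rose and Tyrobp fell. The median log2 change of the 37 genes was -0.11, against -0.0067 over all genes, and 27 of the 37 changes were negative, against 9362 of 18193. An unadjusted p under 0.05 was found in 11 of the 37 and in 11.8% of all genes. In 11 of the 37 genes every knockout array lay on 1 side of every wild type array, as did 18.0% of all genes.

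Fcer1g had log2 values of 7.39, 7.41 and 7.62 in the knockout at E9.0, against 6.10, 6.32 and 6.12 in the wild type. The groups were more than 1 log2 unit apart, a 2.45-fold rise (log2 change 1.29, SE 0.14, adjusted p = 0.00217) that held without any 1 array and within replicates 1 and 2 (1.19, adjusted p = 0.0117). Fcer1g was the 1 gene of the 37 called in the same direction at both stages. The 2 knockout changes differed by 0.08 (SE 0.20, adjusted p = 0.963).

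Cd68 had 6.91, 7.16 and 7.10 in the knockout at E9.0, against 6.46, 6.54 and 6.23 in the wild type, a 1.57-fold rise (log2 change 0.65, SE 0.11, adjusted p = 0.0189). The arrays did not overlap. Its adjusted p was 0.0584 with knockout replicate 3 left out (change 0.63), 0.0578 with wild type replicate 1 left out (0.67), 0.0665 with only the groups compared and 0.102 within replicates 1 and 2 (0.54). Tyrobp had 4.31, 4.72 and 4.37 in the knockout, against 5.01, 5.26 and 4.95 in the wild type, and fell (log2 change -0.61, SE 0.13, adjusted p = 0.0451). Its knockout values were not shown to be above background, so no fold is given. Its arrays did not overlap, and leaving out any array of that stage except knockout replicate 2 took the adjusted p above 0.05, up to 0.204. It was 0.121 within replicates 1 and 2 (change -0.62) and 0.107 with only the groups compared, and the call was lost in 6 of the 10 settings that left out no single array.

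Among genes that missed the threshold at E9.0, Fcgr3 had 7.26, 7.70 and 7.29 in the knockout, against 8.20, 8.41 and 8.27 in the wild type, with a change of -0.88 (SE 0.19, adjusted p = 0.0506). Ptprc had 4.31, 4.42 and 3.46 in the knockout, against 5.13, 5.14 and 4.82 in the wild type, with a change of -0.97 (SE 0.22, adjusted p = 0.0548). In both genes all knockout arrays were lower. With replicate 3 as a batch block both were called (adjusted p = 0.0499 for Fcgr3 and 0.0127 for Ptprc). All 6 leukocyte-wide genes, the 3 C1q genes and all 6 integrin, lysosome and oxidase genes had negative changes at E9.0, with role medians of -0.29, -0.29 and -0.09, and in each of these groups 0 passed limma's test, while 1 of 6, 1 of 3 and 2 of 6 had an unadjusted p under 0.05, which 11.8% of all genes had. Of the genes changed at E10.5, Csf1r had 0.43 (adjusted p = 0.344), Mpo 0.32 (adjusted p = 0.609), Cd52 -0.35 (adjusted p = 0.538), Cybb -0.13 (adjusted p = 0.862) and Cyba -0.49 (adjusted p = 0.147) at E9.0. Of the 42 further myeloid genes 1 rose at E9.0, Nckap1l (0.75, SE 0.11, adjusted p = 0.00909), and its adjusted p was 0.0583 when knockout replicate 1 was left out and 0.0605 within replicates 1 and 2. The further granule and progenitor lists had 0 calls by limma's test, with 2 of 16 and 4 of 20 genes at an unadjusted p under 0.05, near or above the 11.8% of all genes. The megakaryocyte list had 1 of 6 genes lower at E9.0, Itgb3 (-0.83, adjusted p = 0.0370), where 0.632% of all genes were called lower. That call was kept in 1 of the 6 fits without 1 array. All 6 heart muscle genes had negative changes at E9.0, 0 of them called and 2 at an unadjusted p under 0.05.

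Whether the knockout change differed between stages was tested directly as an interaction. Tyrobp was the 1 gene of the 37 that passed, where 0.187% of all genes did (0.104% with a positive difference and 0.0824% with a negative one). Its knockout change was 0.48 at E10.5 and -0.61 at E9.0, a difference of 1.09 (SE 0.18, adjusted p = 0.0363). The difference was lost without 8 of the 12 arrays in turn, with an adjusted p of up to 0.114, and within replicates 1 and 2 (1.05, adjusted p = 0.100). Mpo (1.24, SE 0.29, adjusted p = 0.124), Cd52 (1.14, SE 0.27, adjusted p = 0.139), Ptprc (1.08, SE 0.31, adjusted p = 0.251) and Cybb (1.02, SE 0.23, adjusted p = 0.117) had differences of similar size with wider errors and did not pass. For Fcgr3 the difference was -0.94 (SE 0.27, adjusted p = 0.258).

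More of these genes differed between stages than between genotypes. In the knockout 24 of the 37 genes passed between E10.5 and E9.0, 23 of them higher at E10.5, where 23.6% of all genes passed (14.4% higher and 9.17% lower). In the wild type 22 passed, 21 of them higher at E10.5, where 22.2% of all genes passed (13.4% higher and 8.86% lower). The median log2 change with stage was 0.91 in the knockout, against 0.67 in the wild type, and the median over all genes was 0.03 in both. The arrays of the stages did not overlap in 25 of the 37 genes in the knockout, against 34.6% of all genes, and in 26 in the wild type, against 40.0%.

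**Figure D4:**
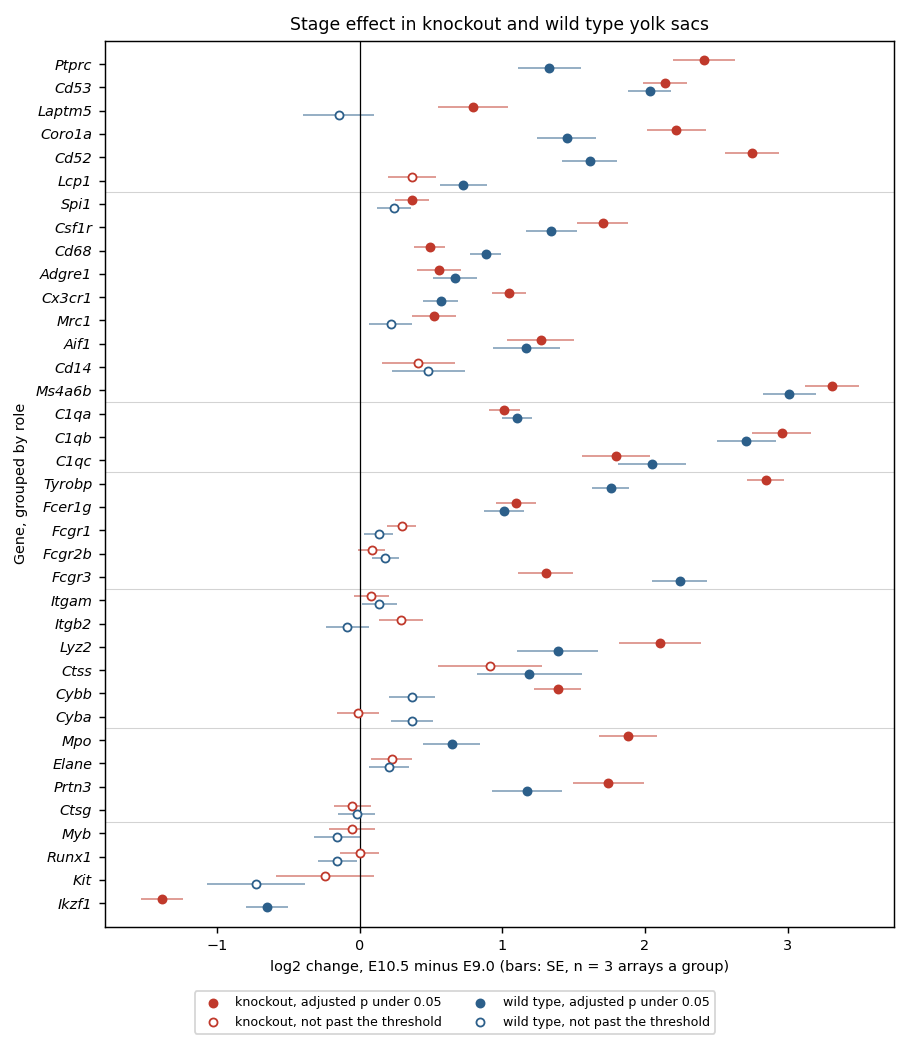
Each row is 1 of the 37 genes, grouped by role, with the log2 change E10.5 minus E9.0 and its SE for the knockout (red, upper point) and the wild type (blue, lower point). Filled points passed the adjusted p threshold of 0.05. Ms4a6b and C1qb lie farthest to the right in both genotypes, and Ikzf1 is the 1 filled point left of 0 in each.

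Ms4a6b, a membrane-spanning protein of the MS4A family, had the largest change with stage. Its values at E10.5 were 6.52, 6.92 and 6.70 in the knockout, against 6.58, 7.24 and 6.42 in the wild type. At E9.0 they were 3.36, 3.50 and 3.35 in the knockout, against 3.95, 3.70 and 3.56 in the wild type. The log2 change with stage was 3.31 in the knockout (SE 0.19, adjusted p = 5.75e-07) and 3.01 in the wild type (SE 0.19, adjusted p = 1.18e-06). The second Ms4a6b probe set, with a mean log2 value of 2.65, had a change of 0.36 in the knockout, against 0.47 in the wild type. C1qb, whose upstream window is printed above, had a log2 change of 2.96 in the knockout (SE 0.21) and 2.71 in the wild type (SE 0.21). For both genes the E9.0 values were not shown to be above background, so no fold is given. Its other 2 probe sets were higher at E10.5 as well, by 1.16 and 2.48 in the knockout and by 1.41 and 2.45 in the wild type.

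All 3 C1q genes were higher at E10.5 in both genotypes, C1qc by 1.80 in the knockout, against 2.05 in the wild type, and C1qa by 1.01 in the knockout, against 1.10 in the wild type. Of the Fc receptor group 3 of 5 were higher in both genotypes, namely Tyrobp, Fcer1g and Fcgr3. Tyrobp was higher by 2.85 (SE 0.13) in the knockout, against 1.76 (SE 0.13) in the wild type, and Fcgr3 by 1.30 (SE 0.19) in the knockout, against 2.24 (SE 0.19) in the wild type. Fcer1g was higher by 1.09 in the knockout, against 1.01 in the wild type.

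Of the 6 leukocyte-wide genes 5 were higher at E10.5 in each genotype. Cd52 was higher by 2.75 in the knockout, against 1.61 in the wild type, and Ptprc by 2.41 in the knockout, against 1.33 in the wild type. Coro1a was higher by 2.22 in the knockout, against 1.45 in the wild type, and Cd53 by 2.14 in the knockout, against 2.03 in the wild type. Of the 9 macrophage identity genes 8 were higher in the knockout, against 6 in the wild type, among them Csf1r, higher by 1.70 in the knockout, against 1.34 in the wild type. Without 1 array the count was 5 to 7 in the knockout, where Adgre1, Mrc1 and Spi1 lost their calls on some fits, against 6 throughout in the wild type, and within replicates 1 and 2 it was 6 in the knockout, against 4 in the wild type. Of the oxidase and lysosome group Lyz2 was higher by 2.10 in the knockout, against 1.39 in the wild type, and Cybb by 1.39 in the knockout (adjusted p = 0.000118), with 0.37 in the wild type (adjusted p = 0.138). Mpo and Prtn3 of the 4 granule genes were higher at E10.5 in both genotypes, Mpo by 1.88 in the knockout, against 0.64 in the wild type. The Mpo call in the wild type was lost without replicate 1 or 2 of E9.0 or replicate 1 or 3 of E10.5, with changes of 0.44 to 0.71 and an adjusted p of up to 0.158. The interaction above is also the test of whether the stage change differs between genotypes, and among these genes it passed for Tyrobp alone.

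Of the 4 progenitor genes 0 were called higher at E10.5 in either genotype. Ikzf1 was the 1 gene of the 37 called lower at E10.5, with 6.29, 6.90 and 6.78 at E10.5 and 8.22, 7.94 and 7.97 at E9.0 in the knockout (-1.39, SE 0.15, adjusted p = 5.90e-05). In the wild type it had 7.21, 7.09 and 6.96 at E10.5 and 7.85, 7.73 and 7.63 at E9.0 (-0.65, SE 0.15, adjusted p = 0.00746). The second, dimmer Ikzf1 probe set did not pass in either genotype. Its changes were -0.38 in the knockout (adjusted p = 0.0841 over all probe sets) and -0.07 in the wild type (adjusted p = 0.785). With the mean of both probe sets the wild type call was lost (adjusted p = 0.0511). Kit, Myb and Runx1 did not pass at their brightest probe sets, with changes of -0.25, -0.06 and 0.00 in the knockout and -0.73, -0.16 and -0.16 in the wild type. Other probe sets of Runx1, the factor needed for blood to form from endothelium, differed from the brightest. In the knockout 2 of the 5 others were lower at E10.5, with changes of -1.31 (adjusted p = 0.00638 over all probe sets) and -0.53 (adjusted p = 0.0241). In the wild type 4 of the 5 were lower, with changes of -2.06 (adjusted p = 0.000422), -1.08, -0.82 and -0.59. The Runx1 result depends on the probe set read. Of the 20 further progenitor genes 3 were higher and 6 lower at E10.5 in the knockout, and 2 were higher and 7 lower in the wild type. Of the 42 further myeloid genes 19 were higher and 2 lower in the knockout, and 14 were higher and 2 lower in the wild type. Over all genes 14.4% were higher and 9.17% lower in the knockout, and 13.4% were higher and 8.86% lower in the wild type.

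**Figure D5:**
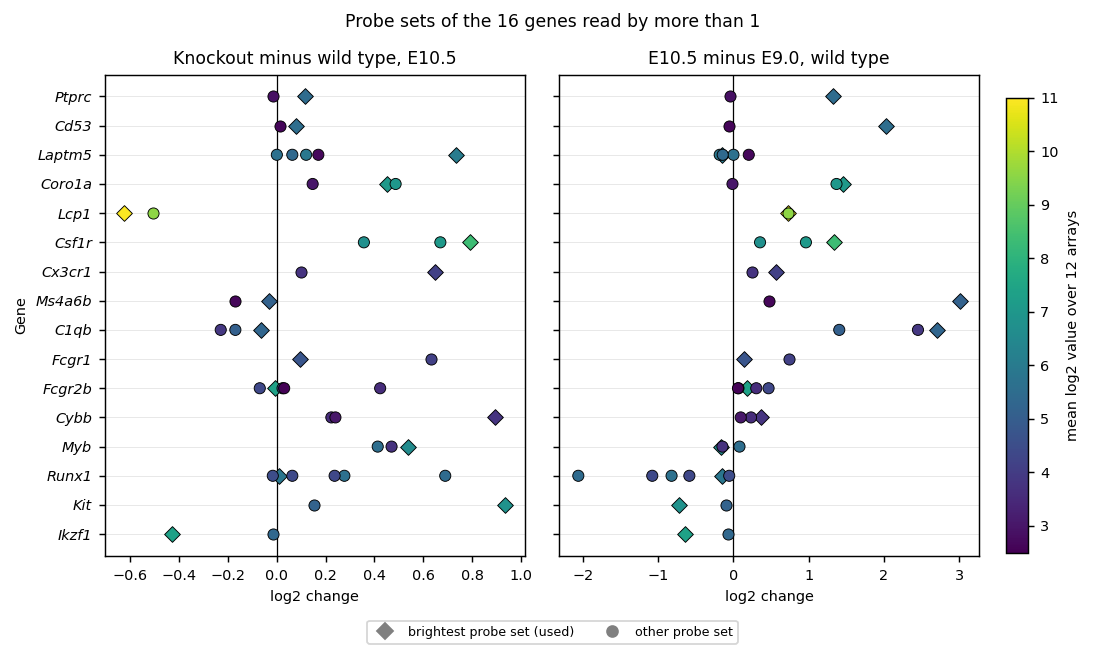
Each point is 1 probe set of the 16 genes read by more than 1, with the brightest, which was used, as a diamond and the others as circles, coloured by mean log2 value. The left panel gives the log2 change in the knockout at E10.5 and the right panel the change E10.5 minus E9.0 in the wild type. Laptm5, Cybb, Cx3cr1 and Kit have larger knockout changes at the probe set used than at their others, and Runx1 spreads from -2.06 to -0.06 in the right panel.

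Of the 37 genes 16 were read by more than 1 probe set, 68 probe sets in all. The 31 not used include 12 with a mean log2 value below 4, against a lowest value of 2.03 on any array. Of the probe sets used, 3 were below 4 as well, those of Cybb (3.77), Aif1 (3.75) and Itgam (3.38). For Fcer1g, Fcgr3, Tyrobp, Cyba, Cd52, Cd68 and Mpo 1 probe set was available each, so these changes have no second reading.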

How the data were processed

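The authors made the log2 expression values with RMA, per the submitters' processing notes (version not given in the sources used here), and deposited them to 2 decimals for 45101 probe sets on 12 arrays. RMA normalises all arrays to 1 distribution and gives no depth or detection call, and precision is set by how many arrays there are. The 64 control probe sets were left out, and 34945 probe sets with 1 symbol in the platform annotation gave 18193 genes, each read at its brightest probe set. All 12 arrays entered 1 linear model with a mean for each group (limma 3.58.1, R 4.3.3, lmFit and eBayes, 8 residual and 4.56 prior degrees of freedom, median SE 0.126). Tests were two-sided, with Benjamini-Hochberg adjustment over all genes of a comparison and a threshold of 0.05. For single probe sets the adjustment ran over all those with 1 symbol. The labels call the 3 samples of a group biological repeats, and no pair of arrays held identical values.

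The genes and all lists were chosen with earlier results of these data known. Array values are given for every gene called in a knockout comparison and for the gene with the largest change at E10.5 in each role group. For stage the 8 largest changes are named, and from each further list up to 3 called genes by smallest p. One gene of the further myeloid list that the rule takes is not reported here. Genes outside this rule, and array values given for Lyz2, Ptprc and Ikzf1, were chosen after their values were seen. The batch of replicate 3 was inferred from control probe sets and is not named in the labels. The fit was tested on simulated data. Alternatives were a replicate block, a batch block, replicates 1 and 2 only, only the groups compared, median centring, quantile normalization, other probe set rules, a brightness filter, an intensity trend and leaving out each array. One more, every probe set as a row, was chosen after seeing the data. Figures were drawn with matplotlib 3.10.9.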

Additional observations from a re-analysis of the deposited data

Results flagged for a closer look

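The interaction test of limma called 34 of 18193 genes (0.187%), and 3 of them are in the lists used here. For Tyrobp the difference was 1.09 (SE 0.18, adjusted p = 0.0363), with all 3 knockout arrays above the wild type at E10.5 and all 3 below it at E9.0. It missed the threshold without 8 of the 12 arrays in turn and within replicates 1 and 2 (1.05, adjusted p = 0.100). For Ppbp, a platelet chemokine of the megakaryocyte list, the difference was -1.97 (SE 0.31, adjusted p = 0.0244). Its means were 6.78 in the knockout against 8.77 in the wild type at E10.5, and 3.53 in the knockout against 3.54 in the wild type at E9.0. The E9.0 values were not shown to be above background, so a fall at that stage could not be measured. The Ppbp difference missed the threshold without 7 of the 12 arrays (adjusted p up to 0.0918) and within replicates 1 and 2 (-2.04, adjusted p = 0.120). For Tnnt2, cardiac troponin T of the heart muscle list, the difference was 2.95 (SE 0.51, adjusted p = 0.0436). Its means were 6.23 in the knockout against 4.31 in the wild type at E10.5, and 5.05 in the knockout against 6.09 in the wild type at E9.0. It missed the threshold without 9 of the 12 arrays (adjusted p up to 0.127) and within replicates 1 and 2 (2.81, adjusted p = 0.155).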

How the results depend on the processing

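No called change turned its sign under any alternative run. At E9.0, where 3 genes were called, the count was 5 with a replicate block, 5 with replicate 3 as a batch block, 1 with only the groups compared and 1 to 6 without 1 array (6 without knockout replicate 2, 1 without knockout replicate 3 or wild type replicate 1). At E10.5, where 10 were called (7 higher and 3 lower), it was 5 among genes brighter than the median gene (2 higher and 3 lower). That filter leaves 12 of the 37 and drops Mpo, Cybb, Cd52, Cx3cr1 and Tyrobp, which had all risen. The count was 6 to 11 without 1 array (6 without wild type replicate 1). It was 11 with the replicate block, 13 with the batch block (Laptm5, C1qa and Myb added), 7 within replicates 1 and 2 and 8 with every probe set as a row. Of the 10 calls, 6 held without any 1 array and 4 under every setting that tested the gene. One of these 4, Mpo, was dropped by the brightness filter. The single difference between stages became 2 with the replicate block, 0 within replicates 1 and 2, 0 with quantile normalization, 0 with the most variable probe set and 0 among brighter genes, and was 0 to 2 without 1 array. The stage count of 24 in the knockout became 7 of 12 among brighter genes and 21 to 23 without 1 array. That of 22 in the wild type became 7 of 12 and 20 to 22. The brightness filter dropped all genes at or below the median, and stage calls over all genes went from 4290 to 3702 in the knockout. They went from 4044 to 3527 in the wild type, and calls of the knockout change at E10.5 went from 1325 to 873. The share of all genes called was thus higher among the brighter genes in each of these comparisons. Stage calls lost without 1 array were Adgre1, Laptm5, Mrc1 and Spi1 in the knockout and Ctss and Mpo in the wild type. Over all genes, the 215 calls at E9.0 became 33 to 182 without 1 array, 61 with only the groups compared, 69 within replicates 1 and 2, 349 with the replicate block and 476 with the batch block. The 1325 calls at E10.5 became 693 to 1630 without 1 array and 2081 with the batch block, and the 34 differences became 12 to 90 and 115 with the replicate block. Same-numbered knockout and wild type arrays had correlations of deviations of 0.255, 0.0667 and 0.401 at E10.5 and 0.0341, 0.225 and 0.241 at E9.0. All were positive. Arrays of different numbers were not compared in this way, so these values do not settle whether the numbers pair samples. The main model has no block because the labels name none. The cause of these shifts was not tested, apart from the filter and the left-out arrays, which test fewer genes or arrays.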
